A study of Homo sapiens with 6 samples.

Results

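The regions described here were H3K27ac peaks that were broad in both THP-1 cells and M2 macrophages. A region was chosen by the widths of the peaks themselves: an M2 peak of at least 3000 bp that overlapped, by at least 1 bp, a THP-1 peak of at least 2000 bp, with the Y chromosome left out. The rule found 558 of the 56420 M2 peaks (0.989%, exact 95% binomial interval 0.909 to 1.07), which is 22.6% (20.97 to 24.3) of the 2468 M2 peaks of at least 3000 bp. On the THP-1 side 603 peaks took part, 1.92% of the 31444 THP-1 peaks and 31.8% (29.7 to 33.9) of the 1897 that reached 2000 bp.

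THP-1 is a monocytic leukaemia line, and M2 macrophages are the alternatively activated form of these phagocytes, known for tissue repair and for damping inflammation. Both were grown in RPMI medium with serum and fixed with formaldehyde, and H3K27ac, an acetylated lysine of histone H3, was precipitated with the same antibody clone in both. No treatment or genotype is given for either group, and the labels do not name the starting cells of the M2 macrophages. There was 1 H3K27ac library, and so 1 peak list, for each cell type. The series has 6 libraries, and those for the factor YY1 and for input DNA were not analysed here. No gene was assigned to any peak, so neither cell type was checked against its marker genes. With 1 library per cell type, no difference between the lists has a replicate check and no p-value is given. The intervals cover counting over peaks only, and neighbouring peaks of one library are not independent of each other.

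H3K27ac is deposited by the acetyltransferases p300 and CBP at active promoters and enhancers. Most sites carry it on a few nucleosomes beside the factor-bound DNA, while clusters of enhancers and some promoters carry it over long unbroken stretches. Such broad domains, which include super-enhancers, are known for lying near highly transcribed genes and near genes that define a cell's identity.

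The broad-in-both peaks took up a larger part of the sequence than of the peak number, which follows from the width limits of the rule. They spanned 2.80 Mb, which is 4.56% of all sequence in M2 peaks, and their THP-1 partners took up 7.39% of the sequence in THP-1 peaks. Of the 10 widest M2 peaks 6 were in the set, of the 50 widest 31, and of the 100 widest 64. Among the 10 widest THP-1 peaks 9 overlapped a member, among the 50 widest 41, and among the 100 widest 65.

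Membership rose with M2 width. Of the M2 peaks from 3000 to 3999 bp, 243 of 1471 were broad in both (16.5%, interval 14.7 to 18.5), and from 4000 to 5999 bp 195 of 752 were (25.9%, 22.8 to 29.2). From 6000 to 9999 bp it was 99 of 211 (46.9%, 40.03 to 53.9), and at 10000 bp or more 21 of 34 (61.8%, 43.6 to 77.8). The share with no THP-1 peak at all went the other way, from 24.1% in the narrowest of these classes to 8.82% in the widest. A wider peak also offers more length on which an overlap can fall, and the part of that in the trend was not tested. Outside the set, 1358 M2 peaks of at least 3000 bp overlapped only THP-1 peaks under 2000 bp, and 552 overlapped none.

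The same held from the THP-1 side. Of the THP-1 peaks from 2000 to 2999 bp 24.7% (315 of 1275) overlapped a member, from 3000 to 4999 bp 42.3% (215 of 508), and at 5000 bp or more 64.0% (73 of 114). Of the 114 THP-1 peaks in that last class 0.877% had no M2 peak, against 10.9% of those from 2000 to 2999 bp.

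The limits cut through a continuous range of widths. The M2 peaks nearest the M2 limit had 3000, 3002 and 3005 bp inside it and 2999, 2998 and 2992 bp outside it. At the THP-1 limit the partners just inside had 2001, 2001 and 2004 bp, and those just outside 1996, 1993 and 1993 bp.

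Members lay on all 23 chromosomes analysed. Chromosome 1 held the most with 78, ahead of chromosome 6 with 47, chromosome 2 with 42, chromosome 3 with 39 and chromosome 8 with 36. The fewest were on chromosome 16 with 4, chromosome 21 with 6 and chromosome 19 with 7. Relative to all M2 peaks of a chromosome, chromosome 15 had the highest share (1.56%, interval 1.06 to 2.20), and chromosomes 20 (1.42%), 1 (1.33%) and 13 (1.33%) followed. Shares were lowest on chromosome 16 (0.209%, 0.0569 to 0.534), chromosome 19 (0.325%, 0.131 to 0.669) and chromosome 12 (0.520%, 0.284 to 0.870). The upper bounds of those 3 chromosomes lie below the share of 0.989% over all chromosomes.

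Part of this unevenness was already in how many wide M2 peaks a chromosome had. Of its M2 peaks of at least 3000 bp, chromosome 22 had 36.4% broad in both (12 of 33, interval 20.4 to 54.9) and chromosome 15 had 30.7% (31 of 101, 21.9 to 40.7). At the other end stood chromosome 16 with 9.76% (4 of 41, 2.72 to 23.1), chromosome 12 with 11.1% (14 of 126, 6.21 to 17.9) and chromosome 19 with 11.3% (7 of 62, 4.66 to 21.9). On this measure the intervals of chromosomes 12 and 19 stay below the share over all chromosomes, and those of chromosomes 15, 16 and 22 include it. With 23 chromosomes compared and no replicate, these are descriptions of 2 libraries.

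**Figure D1:**
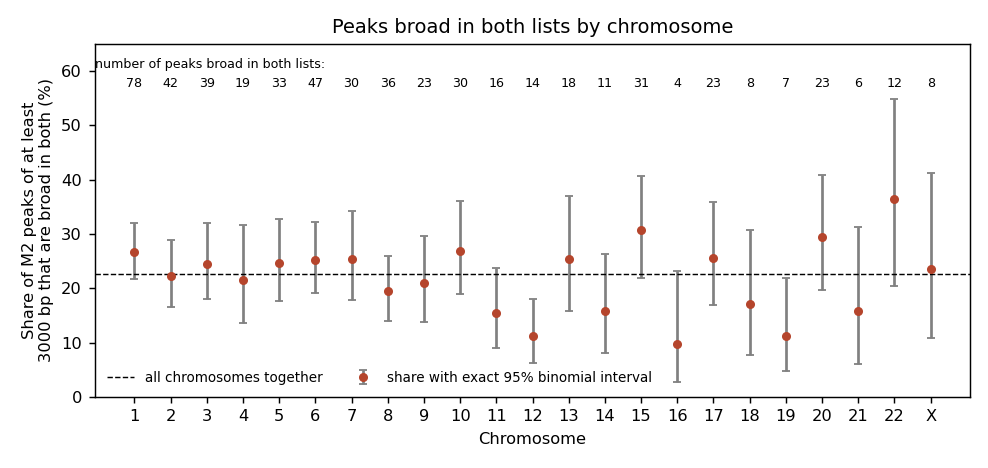
Share of the M2 peaks of at least 3000 bp on each chromosome that also overlapped a THP-1 peak of at least 2000 bp (y axis, percent; bars are exact 95% binomial intervals; numbers above are counts of members). The dashed line is the share over all chromosomes, 22.6%; chromosomes 12 and 19 lie below it with their whole interval, and the intervals of the other 21 include it.

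Most members had no other member within 10000 bp, but few had no other M2 peak within 50 kb. The median distance to the nearest other member was 415038 bp. Within 10000 bp of another member lay 105 of the 558 (18.8%), and within 100000 bp 210 (37.6%). No spacing of other peaks is set beside these values, so they do not tell whether members lie closer together than other peaks. Within 50 kb of a member there was a median of 7.5 other M2 peaks and 7 THP-1 peaks, its own overlapping ones included. Around the wide M2 peaks with only narrower THP-1 peaks the medians were 6 and 5, and around those with no THP-1 overlap 7 and 2. The THP-1 counts include the overlapping peaks by which these classes were chosen. Only 11 members (1.97%) had no other M2 peak within 50 kb, against 6.57% of all M2 peaks.

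Joining members at most 10000 bp apart gave 498 stretches. Of these 453 held 1 member, 33 held 2, 9 held 3 and 3 held 4. One of the stretches of 4 was on chromosome 2 at 145415717 to 145469175, with 35774 bp inside its members, whose widths were 6633, 5866, 11401 and 11874 bp. Another was on chromosome 5 at 134731687 to 134775008 (32088 bp, members of 8440, 4691, 11683 and 7274 bp). The remaining one was on chromosome 13 at 91961325 to 92001282 (25476 bp, members of 8753, 4254, 3403 and 9066 bp). In the chromosome 13 stretch 3 of the 4 members were narrower than their THP-1 partner, and in the chromosome 2 stretch none was.

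The M2 peak was the wider of the pair in most members, and the rule itself favours that. M2 widths ran from 3000 to 26100 bp with a median of 4245 bp (interquartile range 3452 to 5573). The widest THP-1 peak overlapping each member ran from 2001 to 12744 bp with a median of 3020 bp (2390 to 3898). The median ratio of M2 to THP-1 width was 1.43 (interval 1.38 to 1.48), with an interquartile range of 1.10 to 1.78. In 463 of the 558 members (83.0%, 79.6 to 86.0) the M2 peak was wider. Among all 20900 M2 peaks that overlapped a THP-1 peak the share was 67.9%. Since an M2 peak had to reach 3000 bp and a THP-1 peak only 2000 bp, a pair just at both limits already has a ratio of 1.5.

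With the same limit on both sides the excess was much smaller. In the 281 members whose THP-1 partner also reached 3000 bp the median ratio was 1.11 (1.06 to 1.19), and the M2 peak was wider in 186 (66.2%, 60.3 to 71.7), close to the 67.9% over all overlapping M2 peaks. With the limits exchanged, so that the M2 peak had to reach 2000 bp and the THP-1 peak 3000 bp, 383 M2 peaks qualified. The ratio over those was 0.991 (interval 0.935 to 1.04, which includes 1), and 48.6% were the wider of the pair. Over all overlapping M2 peaks, with no limit, the median ratio was 1.40 (1.39 to 1.42). The size of the width difference in the set thus moved with the limits, and the M2 peak stayed the wider one at the median with no limit and with equal limits.

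Widths in the 2 lists were only loosely related. Across the 558 members Spearman's rho between M2 and THP-1 width was 0.337, and across the 281 it was 0.351. The limits cut off narrow peaks of either list, and several members share a partner, so the coefficients are descriptions. When members were ordered by the width of the THP-1 partner and cut into 4 classes of about equal size, the median ratio was 1.70 in the class of the narrowest partners, then 1.51, 1.30 and 1.01 in the class of the widest. This order is set by the choice of members, since the ratio is sorted by its own denominator and no M2 peak is under 3000 bp: in the class of the narrowest partners the lowest possible ratio is above 1. In the class of the widest partners the M2 peak was wider in 51.4% of members. At least 2 times as wide were 104 M2 peaks (18.6%), against 32.7% of all overlapping M2 peaks. At most 0.5 times as wide were 6 (1.08%), against 11.1%. The limits bear on both of these shares, since the M2 limit works against small ratios and the THP-1 limit against large ones.

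**Figure D2:**
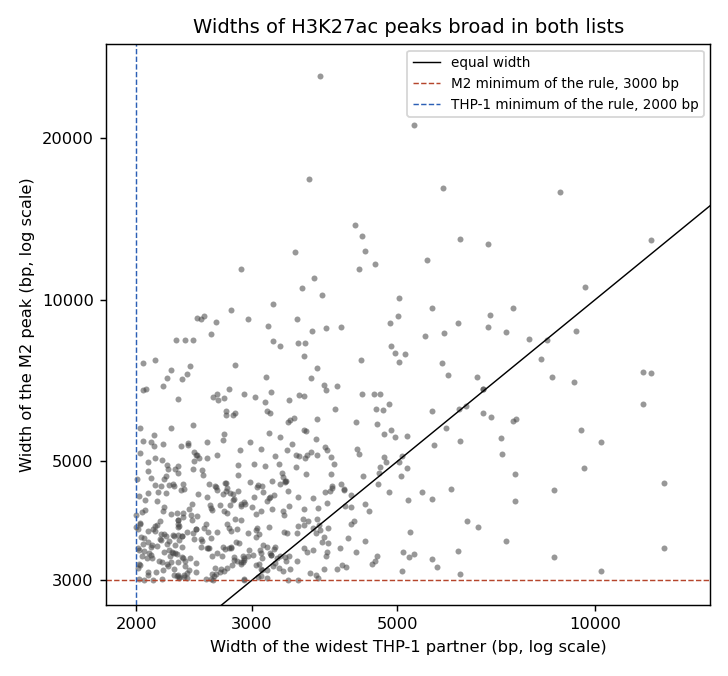
Width of each of the 558 M2 peaks (y axis, bp, log scale) against the width of its widest THP-1 partner (x axis, bp, log scale), 1 point per member; dashed lines are the limits of the rule and the solid line is equal width. Of the points 463 lie above the line of equal width, and the empty lower left corner shows where the limits cut; the M2 peak of 26100 bp has a widest partner of 3815 bp.

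The net reach of M2 past THP-1 was small at the median and long on a minority of sides. On each side, the outermost border of the overlapping THP-1 peaks was compared with the M2 border, counted as positive where M2 reached further. The median was 129.5 bp (interval 83 to 177) on the lower-coordinate side and 142.5 bp (110 to 184) on the higher-coordinate side. These values are signed, so reach in opposite directions cancels and they do not give the usual size of a difference. Within 100 bp of the THP-1 border lay 21.7% of the lower and 17.6% of the higher M2 borders. Interquartile ranges were -118 to 567.75 bp and -140 to 512.75 bp, so at the lower quartile of either side it was THP-1 that reached further. Over all overlapping M2 peaks the medians were 78 and 77 bp.

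M2 reached past THP-1 on both sides in 259 members (46.4%, 42.2 to 50.7), near the 42.5% over all overlapping M2 peaks. THP-1 reached past M2 on both sides in 84 (15.1%, 12.2 to 18.3), where the share over all was 18.5%. The remaining pairs were shifted against each other, 104 towards the lower coordinates and 108 towards the higher ones, apart from 3 in which a border was the same to the base. In the 281 members with a partner of at least 3000 bp, M2 reached further on both sides in 92 (32.7%) and THP-1 in 67 (23.8%), and the side medians were 25 and 27 bp. With the limits exchanged the medians were -58 and -106 bp.

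In the 259 members with M2 further on both sides, the longer of the 2 margins had a median of 668 bp and the shorter 196 bp, a description with no comparison behind it. The longer one was on the lower-coordinate side in 139 (53.7%). Across all members Spearman's rho between the 2 sides was 0.218. An extension by at least 1000 bp on a side was seen for M2 in 110 members (19.7%, against 13.2% of all overlapping M2 peaks) and for THP-1 in 74 (13.3%, against 7.02%). With the THP-1 partner also at 3000 bp or more the order was the opposite, 37 of 281 (13.2%) for M2 and 65 (23.1%) for THP-1. Summed over members, M2 margins past the last THP-1 border came to 409.0 kb, and THP-1 margins past the M2 border to 299.9 kb. Of these THP-1 margins 39.3% lay in other M2 peaks, where the M2 list held 2 or more peaks along 1 THP-1 peak.

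Close agreement of borders was less frequent than among overlapping peaks at large. At least 1 border lay within 100 bp of the THP-1 border in 198 members (35.5%, 31.5 to 39.6), and the share over all overlapping M2 peaks was 46.5%. Both borders did so in 21 members (3.76%), against 8.6% over all. Most overlapping M2 peaks are much narrower than the members, and the distance of 100 bp was the same for all widths. The part of width in these differences was not tested. Among wide M2 peaks with only narrower THP-1 peaks 20.1% had a border that close, a share the limit on their THP-1 peaks itself lowers.

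**Figure D3:**
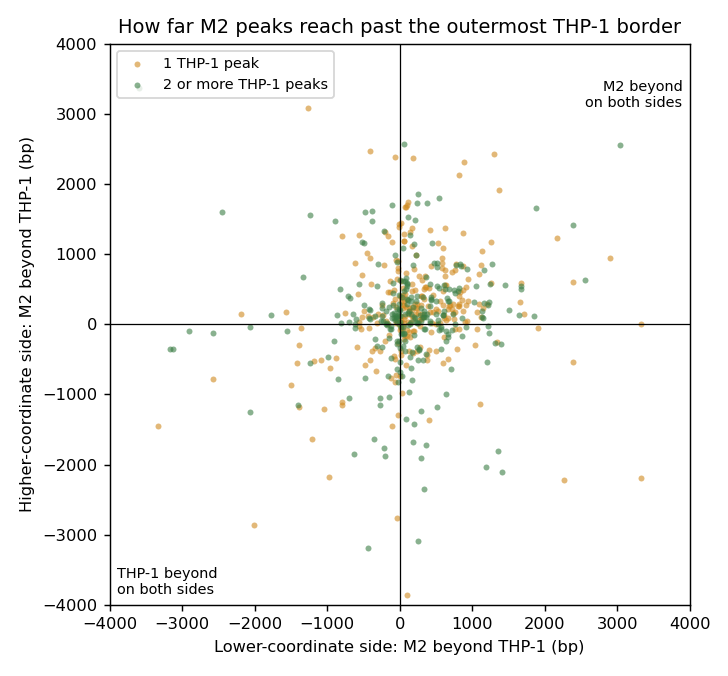
Reach of the M2 peak past the outermost overlapping THP-1 border on the lower-coordinate side (x axis, bp) and the higher-coordinate side (y axis, bp); each point is 1 of 543 members, coloured by its number of THP-1 peaks, and 15 members with a value past 4000 bp either way are not drawn. Points crowd around 0 on both axes, 259 of the 558 members fall in the upper right where M2 reaches further on both sides, and 84 in the lower left.

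Chromosome 3 at 18457201 to 18473343 had the longest one-sided M2 extension. This M2 peak of 16143 bp ran 6520 bp past the last THP-1 border on its higher side and 819 bp on its lower side. On chromosome 17 at 46076437 to 46085705, a peak of 9269 bp ran past its single THP-1 peak of 2472 bp by 2592 and 4205 bp. Its summit and that of the THP-1 peak were 18 bp apart, so the M2 peak lay on both sides of a shared summit, and THP-1 covered 26.7% of it. On chromosome 6 at 169687948 to 169694110 the extension was on 1 side only: 3326 bp on the lower side and 12 bp on the higher side.

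Other members with long extensions were shifted. On chromosome 21 at 22396542 to 22401632 M2 reached 3329 bp further on the lower side, THP-1 reached 2198 bp further on the higher side, and THP-1 covered 34.6% of the M2 peak. On chromosome 13 at 91992217 to 92001282 M2 ran 3371 bp further on the higher side and THP-1 3591 bp further on the lower side. At each of these loci 2 M2 peaks were linked to the same THP-1 peak. With all linked peaks counted, the reach of M2 past THP-1 was -357 bp on the higher side on chromosome 21. On chromosome 13 it was -32 bp on the lower side, so little of the further reach of THP-1 remained at either locus. The further reach of M2 stayed, 3329 bp on the lower side on chromosome 21 and 3371 bp on the higher side on chromosome 13.

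THP-1 extensions were longest where the THP-1 peak was long and the M2 list held several peaks along it. The widest THP-1 partner, 12744 bp on chromosome 10 at 65168669 to 65181412, overlapped 2 members. One of them, at 65172763 to 65177308 (4546 bp), lay wholly inside it with THP-1 reaching 4094 and 4104 bp further. The other, at 65180664 to 65184105 (3442 bp), sat on its edge and had the smallest width ratio, 0.270. Taken with every peak linked to it by overlap, this locus had 4 M2 peaks with 9683 bp against 2 THP-1 peaks with 15314 bp.

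Further long THP-1 partners also had several M2 peaks along them. The THP-1 peak of 11833 bp on chromosome 7 at 92262962 to 92274794 overlapped 2 members, at 92260780 to 92267175 and 92267563 to 92274907. The first of these members also overlapped another THP-1 peak. The pair of members reached 68 and 113 bp past the outermost borders of these 2 THP-1 peaks. The THP-1 peak of 10213 bp on chromosome 15 at 50351696 to 50361908 also held 2 members, of 3116 and 5424 bp. On chromosome 8 at 130556300 to 130568462 a THP-1 peak of 12163 bp ran along 2 M2 peaks with 8746 bp in all, 7291 bp of it in a member that lay 2008 bp inside its lower and 2864 bp inside its higher border.

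Joining all M2 and THP-1 peaks linked by overlap gave 551 groups and took this splitting into account. In 243 groups (44.1%) 1 M2 peak faced 1 THP-1 peak, and in 231 (41.9%) 1 M2 peak faced several THP-1 peaks. Several M2 peaks faced 1 THP-1 peak in 27 (4.90%), and 50 (9.07%) had several of both. THP-1 had more peaks than M2 in 247 groups and fewer in 32. M2 peaks held more sequence in 436 groups (79.1%), with a median ratio of 1.19 (1.17 to 1.22), which is smaller than the ratio of single widths. M2 reached further on both sides in 283 (51.4%) and THP-1 in 64 (11.6%). Every group contains a member, so the unequal width limits of the rule favour M2 in sequence and in reach. A wide M2 peak also has more room for several THP-1 peaks. Groups were not formed with equal or exchanged limits, or from all overlapping peaks. The part of the limits in these shares was therefore not tested.

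Most of each member was also covered by THP-1 peaks. The covered share had a median of 81.3% (interval 79.3 to 83.4; range 19.5 to 100%), and 77.5% of the summed length was covered. Over all overlapping M2 peaks the median was 67.8%. Wholly inside THP-1 peaks were 42 members (7.53%), against 15.6% over all, and 24 (4.30%) were covered by less than 50%, against 31.2%. The limit of 2000 bp on the THP-1 partner itself holds the covered share of members up. Of the 0.628 Mb not covered, 65.1% lay in outer margins and 34.9% in gaps between the THP-1 peaks along a member. In the wide M2 peaks with only narrower THP-1 peaks the median covered share was 38.1%, a value the THP-1 limit itself depresses.

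A single M2 peak often ran across several THP-1 peaks. In 280 members (50.2%, 45.9 to 54.4) there were 2 or more THP-1 peaks, against 15.7% over all overlapping M2 peaks, most of which are much narrower. Among wide M2 peaks with only narrower THP-1 peaks the share was 60.0%. In 49 members 2 or more of the THP-1 peaks reached 2000 bp. The 280 had a median M2 width of 4902 bp, gaps summing to a median of 437.5 bp and a covered share of 79.5%. The 278 with a single THP-1 peak had a median width of 3726 bp and a covered share of 85.5%.

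The number of THP-1 peaks and the gaps between them rose with M2 width. A longer M2 peak has more room for THP-1 peaks, and a gap needs at least 2 of them. The part of this in the rise was not tested. From the narrowest to the widest of the 4 width classes, 32.9%, 53.3%, 77.8% and 90.5% of members spanned 2 or more THP-1 peaks. The summed gaps had medians of 0, 171, 649 and 1399 bp, and the outer margins 332, 661, 592 and 1058 bp. In the classes up to 5999 bp the median margin exceeded the median gap sum, and in the 2 wider classes the gap sum was the larger.

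The 2 widest members were M2 peaks over a row of THP-1 peaks. The widest M2 peak of the whole list lay on chromosome 8 at 97863126 to 97889225 and spanned 26100 bp. It ran across 8 THP-1 peaks of 441 to 3815 bp, which covered 54.9% of it, and the gaps between them summed to 9595 bp. M2 reached 1668 bp further on the lower and 502 bp further on the higher side. Its M2 summit was 12936 bp from the summit of the widest THP-1 peak and 34 bp from that of a narrower one at 97873800 to 97875240.

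Next came chromosome 4 at 180972865 to 180994056, an M2 peak of 21192 bp. It ran across 7 THP-1 peaks, the widest of 5304 bp, that covered 68.4% of it. M2 reached 1860 bp further on the lower side and 120 bp on the higher side. The fold enrichment of those THP-1 peaks was at most 3.65 on the THP-1 list's own scale, and that of the M2 peak was 9.50 on the M2 scale.

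Chromosome 1 at 51432228 to 51449008 followed with 16781 bp and 7 THP-1 peaks (70.2% covered). Here the M2 summit and the summit of the widest THP-1 peak were on the same base. Chromosome 10 at 65215370 to 65231286 (15917 bp) had 4 THP-1 peaks, 1 of them 8852 bp wide, and 80.2% was covered. Chromosome 15 at 28961914 to 28975730 (13817 bp) had 5 THP-1 peaks, was 89.2% covered and ended within 3 bp of THP-1 on its lower side and 187 bp on its higher side. Chromosome 2 at 200316886 to 200330064 (13179 bp) had 6 THP-1 peaks and borders 417 and 47 bp further out.

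Not all of the widest members were split in THP-1. On chromosome 3 at 151910968 to 151923885 an M2 peak of 12918 bp faced a single THP-1 peak of 12184 bp. The lower borders were 25 bp apart, the higher ones 759 bp, and the summits 3 bp. On chromosome 5 at 40482947 to 40493523 an M2 peak of 10577 bp faced a single THP-1 peak of 9654 bp, with M2 reaching 411 and 512 bp further. These were the only 2 of the 21 members of at least 10000 bp with a single THP-1 peak.

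**Figure D4:**
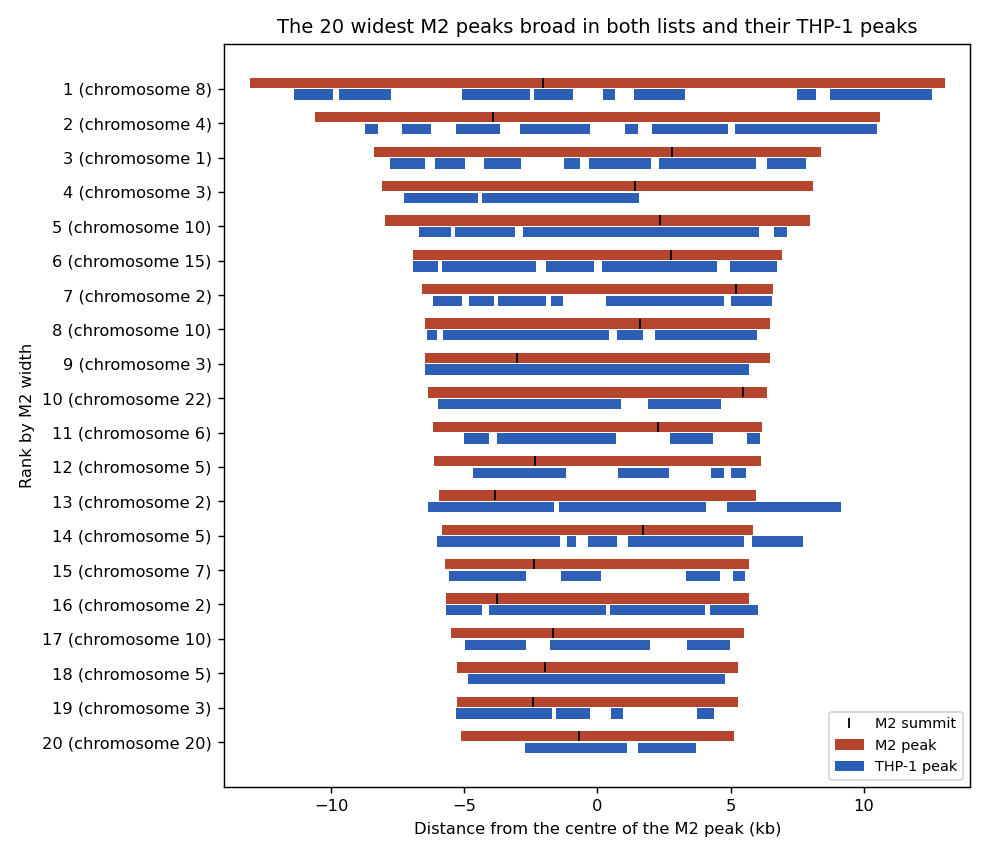
The 20 widest M2 peaks of the set (red, with a tick at the summit) and every THP-1 peak that overlaps them (blue), drawn to scale as distance from the centre of the M2 peak (x axis, kb); rows are ordered by M2 width. The top rows show 1 long M2 peak over 8 and 7 THP-1 peaks, row 4 the M2 extension of 6520 bp to the right, and rows 9 and 18 the pairs of single long peaks.

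The M2 summit and the summit of the widest THP-1 partner were a median of 277.5 bp apart (interval 150 to 452). Within 200 bp lay 270 pairs (48.4%, 44.2 to 52.6), against 66.4% of all overlapping M2 peaks, and over 1000 bp apart were 143 (25.6%), against 6.12%. The overlapping M2 peaks at large had a median width of 1197 bp, which leaves little room for summits that far apart. In the wide M2 peaks with only narrower THP-1 peaks the shares were close to those of the members for distances over 1000 bp (24.0%) and lower for those within 200 bp (40.1%). When the nearest summit of any overlapping THP-1 peak was taken, the median was 89 bp (73 to 105). Then 351 (62.9%, 58.7 to 66.9) lay within 200 bp, against 71.8% of all overlapping M2 peaks and 61.7% of the wide M2 peaks with only narrower THP-1 peaks. The M2 summit was inside a THP-1 peak in 530 members (94.98%, against 83.3% over all), and the THP-1 summit was inside the M2 peak in 544 (97.5%, against 92.2%). The width limits of the rule favour both, since a wide peak leaves more room for a summit of the other list. In the middle 50% of their own peak lay 407 M2 summits (72.9%, against 78.2% over all) and 335 THP-1 summits (60.0%, against 60.8%).

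Fold enrichment was higher in the M2 list, and the ratio of recovered summit signal lay near 1, on a side that moved with the limits. Fold enrichment is the authors' value for the summit over its local background, each list on its own scale. Its median was 9.94 in the M2 peaks and 5.09 in their THP-1 partners, with a median ratio of 1.95 (1.85 to 2.05). M2 was the higher in 514 members (92.1%), where the share over all overlapping M2 peaks was 82.5%. The fragments over each summit, recovered from these values and the p of each peak, had medians of 134 (range 27 to 573) in M2 and 100 (24 to 492) in THP-1. Put relative to the lowest background of each list, taken as the genome-wide coverage, the M2 to THP-1 ratio was 1.06 (0.993 to 1.12; interquartile range 0.767 to 1.38). It was above 1 in 296 of the 555 members with a value (53.3%), against 45.6% of all overlapping M2 peaks. With the THP-1 partner also at 3000 bp or more the ratio was 0.923 (0.868 to 0.988), and it was above 1 in 120 of 280 (42.9%).

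The local background differed more than the signal did. At member summits it was 5.16 times the lowest background in M2 and 10.4 times in THP-1. The THP-1 value exceeded the M2 value in 467 of 555 members (84.1%), near the 83.4% over all overlapping M2 peaks, with a median ratio of 2.00. A higher local background lowers the fold enrichment and narrows or splits a called peak at equal fragments, and its part in the widths and in the split THP-1 peaks was not tested.

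The wide M2 peaks with only narrower THP-1 peaks stood apart on the recovered signal. Their M2 summits held a median of 149 fragments and the THP-1 summits 60, and the M2 to THP-1 ratio relative to coverage was 1.77 (interval 1.69 to 1.86), where that of the members was 1.06 and that of the members with a partner of at least 3000 bp 0.923. The ratio of local background, THP-1 over M2, was 1.47 there and 2.00 in the members. The THP-1 widths chose between these classes, so these values describe the classes and support no difference between them.

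**Figure D5:**
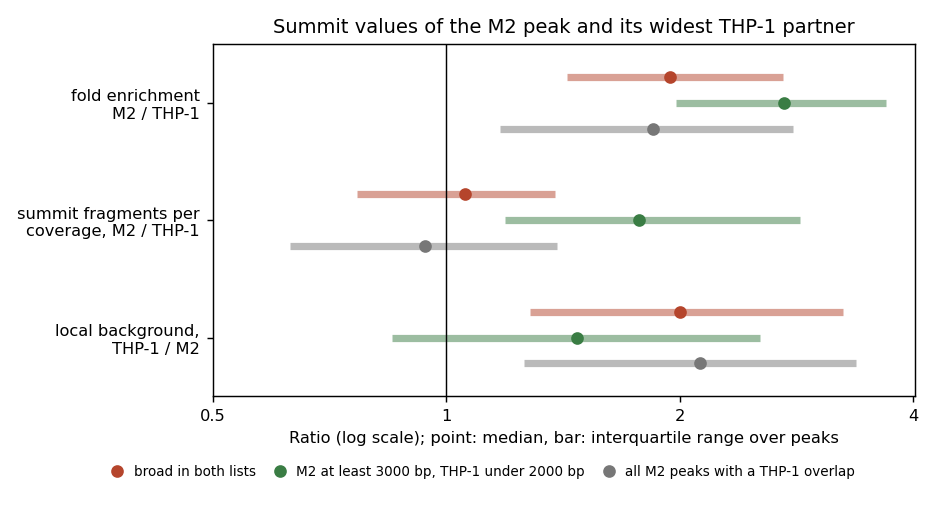
Ratios at the summits of the M2 peak and its widest THP-1 partner (x axis, log scale; points are medians and bars interquartile ranges over peaks) for members, for wide M2 peaks with only THP-1 peaks under 2000 bp, and for all overlapping M2 peaks. The members lie at 1.95 for fold enrichment, 1.06 for summit fragments relative to coverage and 2.00 for local background, THP-1 over M2.

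Width and fold enrichment were little related within the set, from which the limits cut off narrow peaks. Spearman's rho across members was 0.00666 between M2 width and M2 fold enrichment and 0.171 between THP-1 width and fold enrichment. Between the M2 and THP-1 fold enrichment of a pair it was 0.458. These coefficients do not cover the recovered fragments. The 10 widest M2 peaks of the set held 144 to 350 fragments at the summit, where the median over members was 134. The highest M2 fold enrichment was 38.2, on chromosome 15 at 96599691 to 96603444, a peak of 3754 bp whose THP-1 partner had 8.68. Its M2 summit held 132 fragments, near the median over members, and its local background was the lowest of the M2 list. The highest THP-1 fold enrichment was 21.7, on chromosome 8 at 97800417 to 97808035, where the M2 peak of 7619 bp had 8.60. The recovered signal went the other way there, with 285 fragments in M2 and 109 in THP-1. Relative to coverage the M2 to THP-1 ratio was 2.01. The local background in that region was 13.9 times the lowest in M2 and 2.31 times in THP-1. That region and the widest member lay within 100000 bp of each other on chromosome 8. On chromosome 2 at 145457302 to 145469175 the fold enrichment was 16.4 in M2 and 17.8 in THP-1.

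The 95 members with the wider peak in THP-1 often shared that peak with other M2 peaks. Their M2 peaks had a median of 3597 bp and their partners 4859 bp, and the THP-1 peaks covered a median of 99.6% of them. In 43 of the 95 (45.3%, 35.02 to 55.8) another M2 peak overlapped the same THP-1 partner, which was so in 25 of the 463 (5.40%, 3.52 to 7.87). For the recovered signal relative to coverage, M2 over THP-1, the median was 0.722 (0.619 to 0.798) in these members and 1.14 (1.09 to 1.18) in the others. Fold enrichment was still higher in M2 in 84 of the 95 (88.4%). One of the 11 exceptions was on chromosome 1 at 40864484 to 40867793, with 3.27 in M2 and 7.31 in a THP-1 peak of 8671 bp. Width chose these subsets, so the values are given with no test.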

How the data were processed

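H3K27ac peak lists of M2 macrophages and THP-1 cells were used, 1 per cell type. Per the submitters' processing notes, which give no settings, Bowtie2, MACS2 2.1.0 and the build hg19 were used. No source used here says whether the input was the control of the peak caller. The files have no header, and their narrowPeak column order was checked on the values. Per peak the authors deposited start, end and summit position in bp, a fold enrichment (a ratio to local background), -log10 p and -log10 q values, and a score (10 times the -log10 q, cut to a whole number), which was not used. Peak numbers start at 2468 for M2 and at 1253 for THP-1, and lower numbers are not used here.

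Overlaps, widths (end minus start), borders and covered length were computed in Python 3.11.15 with numpy 2.4.6 and pandas 2.3.3, and positions are printed from 1. Shares have exact (Clopper-Pearson) 95% intervals from scipy 1.17.1, and medians have binomial order-statistic intervals. The lists give no counts. Fragments and local background at the summit were solved from the fold enrichment and p-value deposited by the authors with the usual MACS2 relations (pseudocount 1, Poisson p), with the M2 pileup scaled by 0.842 and the THP-1 pileup by 1. A single whole number resulted for 99.75% of the peaks in M2 and 100% in THP-1. They are inferred, not the authors' counts. Overlap and recovery were tested on simulated data.

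The members, the lists and the named regions' rule were chosen with earlier results of these data known. That rule takes the 10 widest by M2 and by THP-1 width and 5 each at the extremes of ratio, extension, THP-1 peak number and fold enrichment. The text names some of these and, chosen after their values were seen, the stretches of 4 members. No hg19 annotation or sequence was used, and only 4.19% of 34961 GRCh38 promoters had their midpoint in an M2 peak, so regions are given by hg19 coordinates and the planned gene lists were not made. The effect of other thresholds, merged gaps, a stricter overlap and subsets is given at the end.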

Additional observations from a re-analysis of the deposited data

How the results depend on the processing

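Width differences depended on the thresholds. Of the 11 settings tried 2 were chosen after seeing the data: borders of the widest THP-1 partner only, and partners that overlap no other M2 peak. The number of members, 558, was 281 with 3000 bp on both sides, 959 with 2000 bp on both, 190 with 4000 and 3000 bp, 1238 with gaps of at most 500 bp merged and 278 with a single THP-1 peak. For equal limits of 3000 bp, equal limits of 2000 bp and the exchanged limits in turn, the share with the wider M2 peak was 66.2%, 65.7% and 48.6%, and the median ratio 1.11, 1.13 and 0.991, whose interval of 0.935 to 1.04 includes 1. The share with M2 further on both sides was 32.7%, 32.6% and 24.0%, the lower-side extension 25, 30 and -58 bp, and the higher-side extension 27, 41 and -106 bp, so the exchanged limits turned both extensions. The covered share was 90.4%, 87.4% and 93.3%, the share with 2 or more THP-1 peaks 41.6%, 34.7% and 33.2%, and the fold ratio 1.76, 1.81 and 1.65. Summits were 456 bp apart with 3000 bp on both sides. Limits of 4000 and 3000 bp gave a ratio of 1.35, 41.1% further on both sides, 82.5 bp on the lower side, 86.2% covered, 54.7% with 2 or more THP-1 peaks, summits 682 bp apart and a fold ratio of 1.84. The widest 5% of each list gave a ratio of 1.35 and 45.5% with 2 or more THP-1 peaks. Merging gaps gave 78.4% wider, a ratio of 1.35, 51.4% further on both sides, 226 and 235 bp, 75.2% covered and 23.5% with 2 or more THP-1 peaks. Members with a single THP-1 peak gave 71.2% wider, a ratio of 1.15, 52.2% further on both sides, 186.5 bp on the higher side, 85.5% covered, summits 123.5 bp apart and a fold ratio of 1.84, and no value for 2 or more peaks. Borders of the widest partner gave 56.3% further on both sides, 460.5 and 341.5 bp. Unshared partners gave 89.4% wider, a ratio of 1.48, 52.9% further on both sides and 184.5 bp on the higher side. Where no construction shows it, the cause was not tested. No paired analysis was possible because each group has 1 library. The recovered fragments limit the precision of summit values, and no depth is known for the borders.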

Other observations

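Just below the M2 limit lay a group with the opposite arrangement. These were 102 M2 peaks of 2000 to 2999 bp that overlapped a THP-1 peak of at least 3000 bp. They enter with the exchanged limits and with equal limits of 2000 bp. Those of at least 2872 bp also enter with the widest 5% of each list. Their median M2 width was 2401.5 bp and that of the THP-1 partner 3705.5 bp, a ratio of 0.629. The reach of M2 past THP-1 had medians of -654.5 bp on the lower and -695.5 bp on the higher side, so THP-1 reached further, and 72 of the 102 (70.6%, 60.7 to 79.2) lay wholly inside THP-1. The recovered summit signal relative to coverage was lower in M2, with an interval of 0.453 to 0.614 for the median M2 to THP-1 ratio, and was higher in M2 in 8 of the 102 (7.84%). The authors' fold enrichment pointed the other way in most of them: it was higher in M2 in 68 (66.7%, 56.6 to 75.7), with a median ratio of 1.32. The local background was higher in THP-1 in 92 (90.2%). The widths chose these peaks, so the values carry no test.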
